A study of Rattus norvegicus with 15 samples.

Results

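The step from early-stage elderly (T3) to latter-stage elderly (T4) rat knee cartilage was taken as the 3 T4 arrays minus the 3 T3 arrays over all genes, so it uses 6 of the 15 arrays of the series. The series followed right knee articular cartilage, taken from Sprague-Dawley rats, through 5 stages (newborn T0, youth T1, adult T2, then T3 and T4), with 3 biological replicates per stage. Both groups of this step carry no treatment or genotype beyond the strain, and differ in the stage name alone; no label states the animals' ages or sexes or the array batches. Each sample was total RNA from an individually harvested knee, hybridised to an Affymetrix RaGene 2.0 ST array. The values are log2 signals of 36685 probe sets, of which 18511 carry a single gene symbol and stand for 18166 genes. A difference of 1 on this scale is a doubling of signal. The table gives no detection call, so no signal could be set against background. Probe sets were ranked by signal only to describe how the changes ran with it; such a rank is not an order of RNA amounts, since probe sets differ in how well they bind.

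Articular cartilage is a tissue of sparse chondrocytes in a matrix that they make and turn over. Type II collagen gives the matrix its tensile network, aggrecan held on hyaluronan by link protein gives it swelling pressure, and lubricin at the surface lowers friction. With age the matrix is renewed slowly, chondrocytes become fewer, and the deepest layer borders on calcified cartilage, bone and marrow. In tissue samples such as these, fewer cells of a type and less RNA per cell cannot be told apart.

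The T4 arrays covered a narrower range of signal than the T3 arrays. The SD of log2 signals over all probe sets of an array was 1.86, 1.83 and 1.97 in T3 replicates 1 to 3 and 1.48, 1.71 and 1.68 in T4 replicates 1 to 3. The groups do not overlap, and the mean differed by -0.26 (1.62 ± 0.13 at T4 against 1.89 ± 0.07 at T3, SD, n = 3 each; exact two-sided permutation p = 0.1, the smallest that 3 against 3 allows). The difference was at the bright end: the 95th percentile had a mean of 8.39 at T3 and 7.57 at T4, while the 5th percentile was 2.27 and 2.23 (exact permutation p = 0.7). T4 replicate 1 stood apart from the other arrays. Its Pearson correlation over probe sets was 0.77 and 0.82 with the other T4 arrays, which correlated with each other at 0.94, and between 0.53 and 0.63 with the T3 arrays. In 608 genes its signal lay at least 2 log2 units below both other T4 arrays, and in 15 genes as far above them. Counts and medians of the gene groups are therefore also given without this array, beside 8.13% of all genes called higher and 27.7% called lower without it. The part of the narrower range in each change below was not tested. Values after quantile normalization, which gives every array the same distribution of signals, are set beside some of the changes. A change given without such a value may also depend on that choice.

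**Figure D1:**
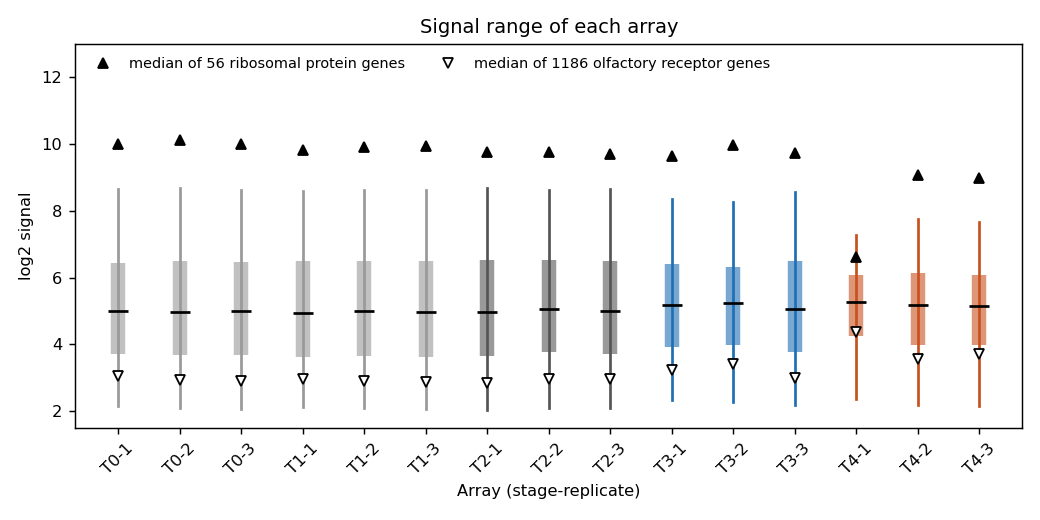
Signal range of the 15 arrays on the log2 scale, by stage and replicate. Thin lines run from the 5th to the 95th percentile of 36685 probe sets, thick bars span the quartiles, and ticks mark the median; triangles give the median of 56 ribosomal protein genes and of 1186 olfactory receptor genes. The 3 T4 arrays have the lowest 95th percentiles, and in T4 replicate 1 the ribosomal median is 6.62 and the olfactory median 4.38.

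Many probe sets passed the test between T3 and T4, and more fell than rose. A linear model over all 15 arrays (limma, Benjamini-Hochberg adjusted p under 0.05) called 15493 of 36685 probe sets (42.2%), with 6042 higher and 9451 lower at T4. Over genes, 2544 of 18166 (14%) were called higher and 5870 (32.3%) lower, together 46.3%, and 5081 genes (28%) were called with a change of at least 1 log2 unit. All T4 arrays lay above all T3 arrays in 13.8% of genes and below them in 32.6%. The median change of all genes was -0.15. Counts of gene groups below, on the deposited signals of all arrays, stand beside the 14% higher and 32.3% lower of all genes. After quantile normalization 13240 probe sets were called, 51.4% of them higher against 39% on the deposited signals. This model pools the spread over stages; with the 6 arrays of the step alone, 2532 probe sets (6.9%) passed, of which 2527 were among the 15493. Without T4 replicate 1, 81.6% of the genes called lower and 57.4% of those called higher were called again in the same direction. With quantile normalization as well, these shares were 45.4% and 66.0%.

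The change followed the signal that a probe set had in younger cartilage. The Spearman correlation between the change and the mean signal over the T0 to T2 arrays was -0.55 across probe sets, a description in which probe sets are not independent. Among the 3669 probe sets with the highest earlier signal, the median change was -1.52, with 79.3% called lower and 0.41% called higher. In bins 2 to 4 of the 10 bins, counted from the lowest signal, the median change was 0.34 to 0.35, and 27.7% to 28.6% of probe sets were called higher. In bins 8 and 9, 42.7% and 66.4% were called lower. The 14% and 32.3% of all genes therefore do not allow for the signal of a list. The cartilage matrix, superficial zone, protease, hypertrophy, ribosomal, neutrophil and erythroid lists below have their median earlier signal in bin 10. Each T4 array showed the slope, and T4 replicate 1 showed the steepest: in the brightest bin its median differed from the T3 mean by -2.55, against -0.82 for replicate 2 and -1.10 for replicate 3. With this trend subtracted from each array, 10008 probe sets were called when the level came from the T0 to T2 arrays and 9623 when it came from T2 alone, of which 7550 and 7200 were among the 15493. It moved many group medians to the other side of 0, and the medians of those groups are given as level-trend values.

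**Figure D2:**
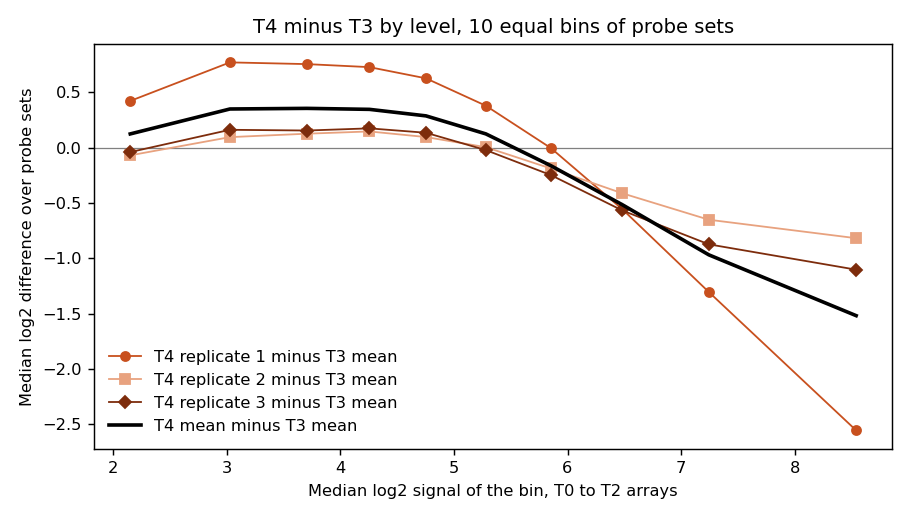
Median log2 difference between T4 and T3 in 10 equal bins of probe sets, plotted at the median T0 to T2 signal of each bin. The black line is the T4 mean minus the T3 mean, and points give each T4 array minus the T3 mean. All 3 arrays fall below 0 in the bins of high signal, from -0.82 to -2.55 in the brightest.

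Genes of the cartilage matrix were lower at T4 where they passed the test. Of 23 measured matrix genes, 0 were called higher and 13 lower (56.5%), against 14% and 32.3% of all genes, and the median change was -1.23. The list's median T0 to T2 signal of 9.59 lay in bin 10. There 79.3% of probe sets were called lower, with a median change of -1.52, so the matrix genes did not exceed probe sets of like signal. The median signal of the list was 7.59, 7.14 and 7.86 in T3 replicates 1 to 3 and 6.06, 6.87 and 6.35 in T4 replicates 1 to 3, so the groups do not overlap. Acan, which encodes aggrecan, had signals of 8.96, 7.997 and 9.88 in T3 replicates 1 to 3 and 5.64, 7.64 and 6.55 in T4 replicates 1 to 3. Every T4 array lay below every T3 array, a change of -2.34 (SE 0.47, adjusted p = 0.00223). Hapln1, the link protein that holds aggrecan on hyaluronan, was even across replicates, with 7.92, 7.24 and 7.62 at T3 and 5.97, 6.19 and 5.35 at T4, a change of -1.75 (SE 0.25, adjusted p = 0.000361). Col2a1, the main collagen of cartilage, had 10.35, 8.80 and 9.96 at T3 and 7.10, 9.70 and 7.20 at T4. T4 replicate 2 lay inside the T3 range, and the change of -1.70 (SE 0.56, adjusted p = 0.0251) turned to 0.59 and 0.44 with the level trend removed; without T4 replicate 1 it was -1.25 and missed the threshold (adjusted p = 0.115). The change of Hapln1 turned to 0.045 against the T0 to T2 level and was -0.13 against T2. Quantile normalization without T4 replicate 1 gave -1.28 for Acan, -1.74 for Hapln1 and -0.60 for Col2a1.

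The largest fall of the matrix list was that of Dcn (decorin), a small proteoglycan that coats collagen fibrils, which gave 9.43, 8.89 and 11.39 at T3 and 6.68, 7.57 and 6.58 at T4, a change of -2.96 (SE 0.51, adjusted p = 0.00101), with no overlap. Bgn (biglycan), Prelp and Lum (lumican) changed by -2.61, -2.69 and -2.28, and Fmod (fibromodulin) by -2.79, where the highest T4 array reached the lowest T3 array at 7.64. Chad (chondroadherin) changed by -2.64 and Cilp, a protein of the intermediate layer, by -1.87. Quantile normalization without T4 replicate 1 gave -2.22 for Dcn, -1.19 for Bgn, -2.48 for Prelp and -1.18 for Lum. In that setting Fmod, Chad and Cilp changed by -2.14, -1.82 and -1.77. T3 replicate 3 had the highest signal of the T3 arrays in Dcn, Prelp (10.20 against 7.35 and 7.16) and Chad (11.52 against 9.53 and 9.52). Epyc (epiphycan), a proteoglycan of the same kind as decorin, was among the members with a difference above 0: Matn1, Col9a2, Epyc and Matn4 had changes of 0.077, 0.0060, 0.28 and 0.41 and did not pass. The list gave 0 higher and 9 lower (median -1.03) when T4 replicate 1 was left out. After quantile normalization without T4 replicate 1, 8 of the 23 were called lower, against 16% of all genes in that setting, and the median was -0.60, while the level-trend median was 0.41 against the T0 to T2 level and 0.087 against the T2 level. With the 6 arrays alone, 4 of the 23 passed: Hapln1, Lum, Dcn and Chad did (adjusted p = 0.0348, 0.0349, 0.0399 and 0.0453), and Acan did not (adjusted p = 0.0533).

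Prg4, which encodes lubricin, had signals of 9.16, 9.28 and 11.01 in T3 replicates 1 to 3 and 7.15, 6.66 and 7.39 in T4 replicates 1 to 3. The 3 T4 arrays were close together and all below T3, a change of -2.75 (SE 0.51, adjusted p = 0.0015), or 6.74-fold. It kept the call after quantile normalization without T4 replicate 1, at -2.17 (adjusted p = 0.0202). Of 12 measured genes of the superficial zone, 6 were called lower and 0 higher, with a median of -1.03 and a level-trend median of 0.20 against the T0 to T2 level and -0.090 against the T2 level. This list gave 0 higher and 5 lower (median -1.03) without T4 replicate 1. Htra1, a secreted serine protease, gave 7.54, 6.99 and 8.51 at T3 and 4.76, 5.98 and 5.11 at T4, a change of -2.40 (SE 0.40, adjusted p = 0.000827). It was called lower in all 8 combinations of 4 normalizations with and without T4 replicate 1, as were 535 genes (2.95%), while 940 (5.17%) were called higher in all 8. These combinations reuse the same arrays and are not independent. Clec3a, a cartilage lectin, had 9.89, 9.07 and 11.53 at T3 and 6.78, 8.05 and 7.07 at T4 and changed by -2.86.

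Of 21 measured matrix proteases and inhibitors, 13 were called lower and 0 higher, with a median of -1.61 and a level-trend median of 0.041 against the T0 to T2 level and -0.18 against the T2 level. Leaving out T4 replicate 1 gave 0 higher and 12 lower (median -0.99). Mmp13, the collagenase of hypertrophic and diseased cartilage, had 9.70, 9.55 and 9.23 at T3 and 4.97, 8.08 and 7.98 at T4, a change of -2.49 (SE 0.67, adjusted p = 0.00999). Its change was -1.47 without T4 replicate 1 (adjusted p = 0.0253), and with quantile normalization as well -0.71 (adjusted p = 0.272). Ctsl, a lysosomal cathepsin, gave 7.10, 7.27 and 7.69 at T3 and 5.40, 5.89 and 5.80 at T4, and Adamts9, a proteoglycanase, gave 6.87, 6.54 and 7.09 at T3 and 5.01, 5.73 and 5.40 at T4. Their changes of -1.66 and -1.46 passed with both choices, at -1.37 and -1.25 (adjusted p = 0.0014 and 0.00147). The inhibitors Timp1, Timp2 and Timp3 changed by -1.88, -1.70 and -1.61. The aggrecanases Adamts4 and Adamts5 had changes of -0.31 and -0.22 and did not pass, nor did Mmp3 at 0.19.

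Sox9, the factor that sets chondrocyte identity, had 4.93, 5.22 and 5.21 at T3 and 5.74, 5.60 and 5.41 at T4. All T4 arrays lay above T3, yet the change of 0.46 (SE 0.18, adjusted p = 0.0508) missed the threshold. Its partner Sox6 fell by 1.34, to 6.35 ± 0.86 from 7.69 ± 0.094 (SD, n = 3 each), and by 0.86 without T4 replicate 1 (adjusted p = 0.011). The call was lost when arrays were quantile normalized as well (adjusted p = 0.343). Of 12 chondrocyte transcription factors, 2 were called higher and 6 lower, with a median of -0.35 (level trend removed, 0.35 against the T0 to T2 level and 0.28 against the T2 level). Among 14 hypertrophy and mineralization genes, 1 was called higher and 9 lower, with a median of -1.39 (level trend removed, 0.12 against the T0 to T2 level and -0.16 against the T2 level). The factors gave 0 higher and 3 lower (median -0.33) and the hypertrophy list 1 higher and 9 lower (median -1.13) without T4 replicate 1. Col10a1, the collagen of hypertrophic cartilage, had 6.99, 6.83 and 8.09 at T3 and 6.24, 6.20 and 5.79 at T4, a change of -1.22 (SE 0.38, adjusted p = 0.0188) that turned to 0.52 and 0.36 with the level trend removed. Sp7, a factor of bone-forming cells, was the one called higher, at 0.89. Ibsp (bone sialoprotein) fell from 9.75 ± 0.51 to 7.04 ± 2.45, with T4 replicate 1 at 4.25 and the others at 8.82 and 8.05; without that array its change was -1.31 in place of -2.70. Of 22 genes for collagen hydroxylation and crosslinking 10 were called lower (median -0.68), and of 12 fibrillar and type VI collagens 6 (median -0.96), with 0 higher in both. The former gave 0 higher and 8 lower (median -0.66) and the latter 0 higher and 4 lower (median -0.81) without T4 replicate 1. Level-trend medians of these collagen lists were above 0, at 0.39 against the T0 to T2 level and 0.15 against the T2 level, and 0.39 against the T0 to T2 level and 0.11 against the T2 level.

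**Figure D3:**
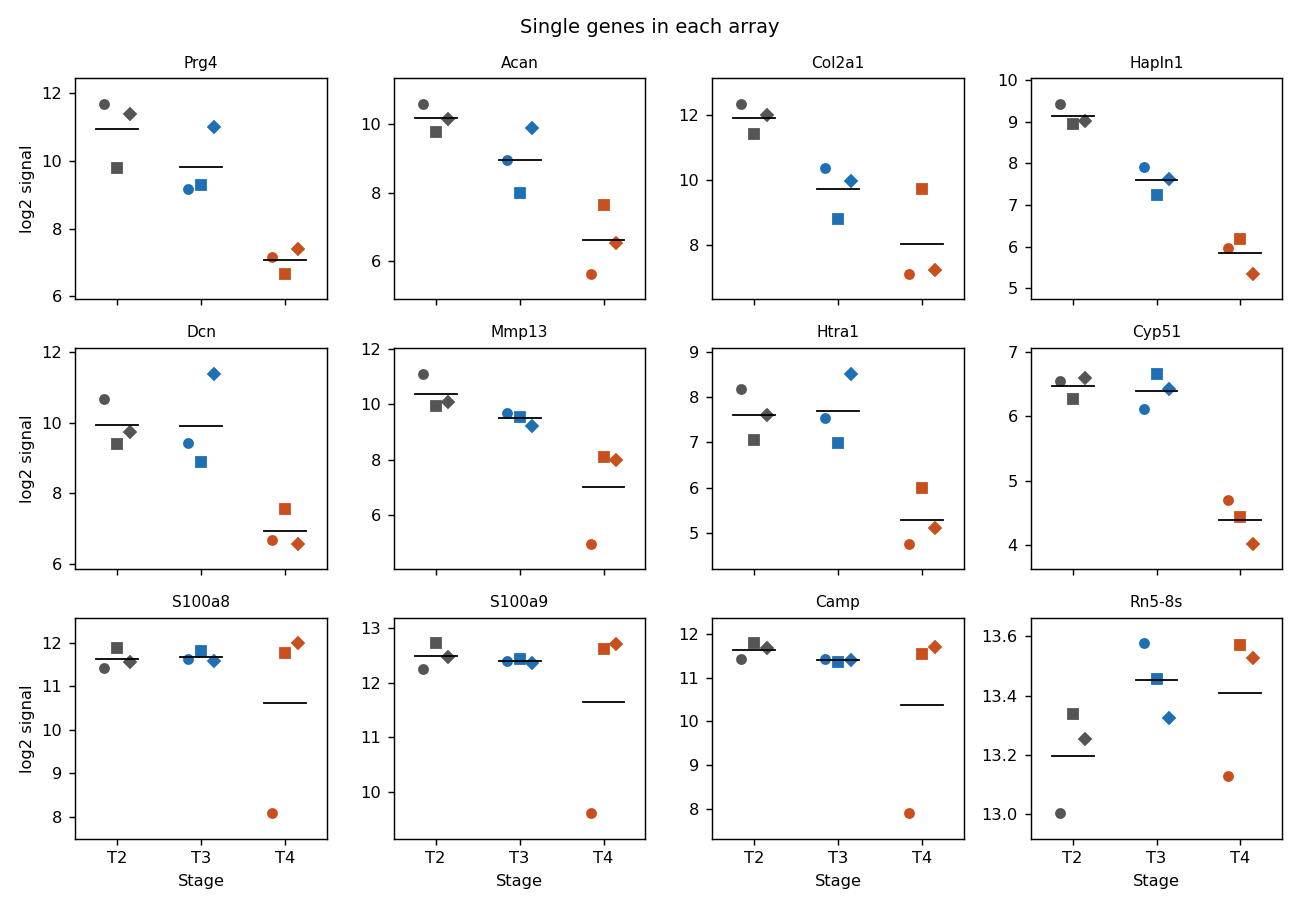
log2 signals of 12 genes in the T2, T3 and T4 arrays. Circles, squares and diamonds are replicates 1, 2 and 3, and bars are stage means. Prg4, Acan, Hapln1, Dcn, Htra1 and Cyp51 have all T4 arrays below all T3 arrays, while in S100a8, S100a9 and Camp only T4 replicate 1 lies below T3.

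Most measured members of the lists of basic cell functions were called lower. Of 23 proteasome genes 22 were called lower, of 24 cell cycle genes 23, of 29 respiratory chain genes 25, of 26 secretory pathway genes 21, of 18 translation factors 15, of 22 antioxidant genes 16 and of 15 senescence and arrest genes 10. Their medians ran from -1.66 for translation factors to -1.22 for the secretory pathway. By median T0 to T2 signal, cell cycle and senescence genes lay in bin 9 and the others in bin 10. In these bins 66.4% and 79.3% of probe sets were called lower. Psma4, a core proteasome subunit, had 7.88, 8.06 and 8.36 at T3 and 4.79, 6.62 and 5.89 at T4, a change of -2.33 (SE 0.34, adjusted p = 0.000418) and a call in all 8 combinations. Tpx2, a spindle assembly factor, had 7.77, 7.64 and 8.33 at T3 and 5.77, 6.66 and 6.57 at T4, and Prdx1, a peroxiredoxin, had 7.68, 8.13 and 7.74 at T3 and 4.15, 6.36 and 6.07 at T4. Sar1b, the small GTPase that starts transport out of the endoplasmic reticulum, had 7.40, 7.11 and 7.89 at T3 and 3.07, 5.99 and 5.21 at T4. Without T4 replicate 1, 22 proteasome, 21 cell cycle, 21 respiratory chain, 18 secretory pathway, 14 translation, 14 antioxidant and 9 senescence genes were called lower, with medians from -1.06 to -0.81. With quantile normalization as well, 8 proteasome, 4 cell cycle, 5 respiratory chain, 6 secretory pathway, 5 translation, 3 antioxidant and 0 senescence genes were, beside 16% of all genes, and the share of cell cycle, respiratory chain and antioxidant genes was near that background. The medians of the secretory pathway and of senescence genes turned to 0.020 and 0.080 with the level trend removed against T0 to T2. Against the T2 level, the level-trend medians were -0.30 for proteasome, -0.089 for cell cycle, -0.20 for respiratory chain, -0.042 for secretory pathway, -0.047 for antioxidant, -0.012 for translation and 0.016 for senescence genes.

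Ribosomal protein genes were mostly called lower, with T4 replicate 1 farthest from T3. Of 56 measured, 4 were called higher and 34 lower, with a median change of -1.43. The group median was 9.65, 9.98 and 9.73 in T3 replicates 1 to 3 and 6.62, 9.09 and 8.97 in T4 replicates 1 to 3. All T4 arrays lay below T3. When T4 replicate 1 was left out the list gave 3 higher and 28 lower (median -0.61). With quantile normalization as well the median change was 0.027, with 4 called higher and 5 lower, and with quantile normalization of all arrays it was -0.75, with 3 higher and 5 lower. The level-trend median was 0.32 against the T0 to T2 level and 0.28 against the T2 level. Rpl34 was lower in every T4 array, with 10.46, 10.80 and 11.46 at T3 and 6.36, 9.002 and 9.21 at T4, a change of -2.71 that was -1.80 without T4 replicate 1. Rpl26 was higher, with 4.21, 4.21 and 4.74 at T3 and 6.48, 5.61 and 6.07 at T4, a change of 1.67 (SE 0.23, adjusted p = 0.000345). Many ribosomal protein genes have processed copies that probes can share, so single members are uncertain.

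Of 18 neutrophil genes, 10 were called lower (median -1.40), and of 11 erythroid genes 8 (median -1.89), with 0 higher in both. The median signal of the neutrophil list was 9.31, 9.37 and 9.75 in T3 replicates 1 to 3 and 6.55, 8.61 and 8.98 in T4 replicates 1 to 3, so all T4 arrays lay below T3 and replicate 1 lay lowest. Not every member followed that median. The calprotectin subunit S100a9, abundant in neutrophils, had 12.39, 12.44 and 12.36 in T3 replicates 1 to 3 and 9.61, 12.61 and 12.71 in T4 replicates 1 to 3. T4 replicates 2 and 3 lay above every T3 array and replicate 1 below, and the change of -0.75 (SE 0.67, adjusted p = 0.377) did not pass. S100a8, the other subunit, had 11.62, 11.80 and 11.59 at T3 and 8.08, 11.77 and 11.98 at T4, and the cathelicidin gene Camp had 11.44, 11.36 and 11.42 at T3 and 7.89, 11.54 and 11.72 at T4. The beta-globin gene Hbb-b1 had 12.55, 12.54 and 12.56 at T3 and 8.92, 12.35 and 12.23 at T4. The lower calls numbered 5 (median -0.56) for neutrophil and 5 (median -0.92) for erythroid genes without T4 replicate 1. After quantile normalization without T4 replicate 1, the neutrophil median was 0.033 with 0 called, and the erythroid median was -0.24 with 1 called higher and 0 lower. Against the T2 level with the trend removed, they were 0.42 and -0.10. In other RNAs of high signal T4 replicate 1 also lay below the rest: Rps29 had 12.78, 12.96 and 12.79 at T3 and 10.11, 12.80 and 12.99 at T4 and Actb 11.82, 11.42 and 12.13 at T3 and 8.78, 11.46 and 11.66 at T4. The probe sets of Rps29 differed. The one shown changed by -0.87 and was not called (adjusted p = 0.190 in the limma fit). Its others were called lower, at -2.11 and -1.12 (adjusted p = 0.0186 and 0.00362). The structural RNAs Rn5-8s (5.8S ribosomal RNA) and Rpph1 (the RNA of RNase P) were high on all arrays, Rn5-8s with 13.58, 13.46 and 13.32 at T3 and 13.13, 13.57 and 13.53 at T4 and Rpph1 with 13.803, 13.67 and 13.75 at T3 and 13.40, 13.79 and 13.74 at T4. These single genes of high signal were chosen after their values were seen.

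Of 11 B cell genes, 7 were called lower and 0 higher (median -0.86, and 0.22 against the T2 level with the trend removed). The count was 5 (median -0.58) without T4 replicate 1, and with quantile normalization as well 4 (median -0.47). Cd79b, a subunit of the B cell receptor, had 8.14, 8.03 and 8.17 at T3 and 5.77, 6.74 and 6.46 at T4, and Ebf1, a factor of early B cells, had 8.74, 8.29 and 9.06 at T3 and 6.02, 7.78 and 6.09 at T4. The difference between the lists was not tested. Of 14 macrophage genes 7 were called lower (a median of -0.96 that was 0.0054 against the T2 level with the trend removed), of 14 osteoblast and osteocyte genes 8 lower and 1 higher (a median of -1.01 that was 0.17 against the T0 to T2 level and 0.13 against the T2 level with the level trend removed), and of 11 endothelial genes 4 lower (a median of -0.54 that was 0.18 against the T0 to T2 level). Of 6 osteoclast genes 2 were called lower, and of 13 T cell genes 1 in each direction (median -0.021, level trend removed 0.084 against the T0 to T2 level and 0.11 against the T2 level). The lower shares of endothelial and osteoclast genes, 36.4% and 33.3%, were near the 32.3% of all genes. Those of B cell, osteoblast and osteocyte, and macrophage genes were 63.6%, 57.1% and 50%. By median T0 to T2 signal, B cell and macrophage genes lay in bin 9 and osteoblast and osteocyte genes in bin 10. In these bins 66.4% and 79.3% of probe sets were called lower. Endothelial and osteoclast genes lay in bin 8, with 42.7% called lower. T cell genes, at 7.7% each way, lay below the 14% higher and 32.3% lower of all genes. In their bin, bin 5, 24.9% of probe sets were called higher and 8.6% lower. When T4 replicate 1 was left out the lower calls were 6 for macrophage, 4 for osteoblast and osteocyte, 3 for endothelial and 2 for osteoclast genes, and no T cell gene was called. Omd (osteomodulin) and Phex, both made by bone-forming cells, changed by -2.30 and -1.85 and kept the call after quantile normalization without T4 replicate 1 (-2.02 and -1.82). The macrophage gene Adgre1 had 6.37, 6.003 and 6.02 at T3 and 4.91, 5.25 and 5.02 at T4 and was called lower in all 8 combinations.

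**Figure D4:**
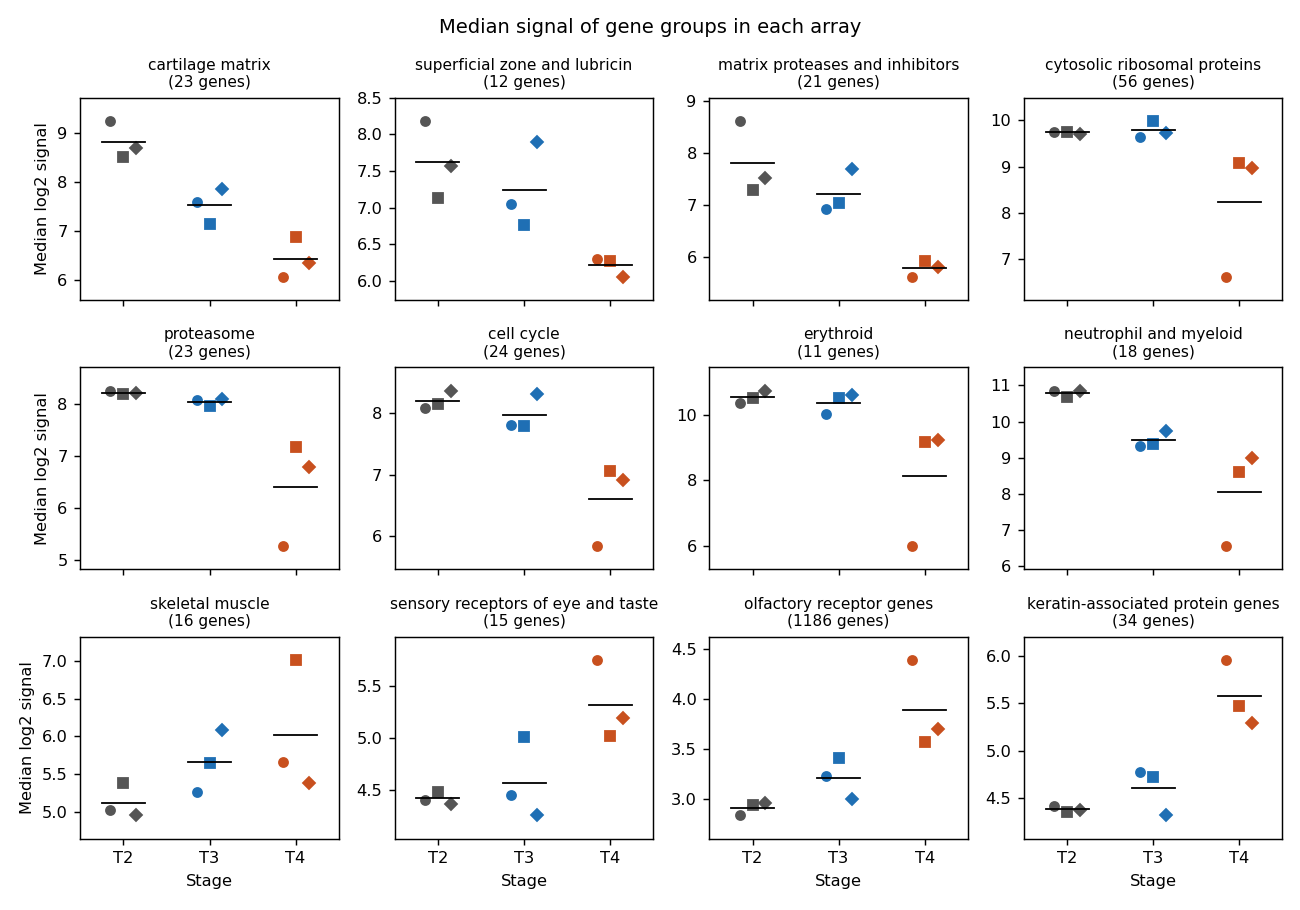
Median log2 signal of 12 gene groups in each T2, T3 and T4 array, with replicates 1, 2 and 3 as circles, squares and diamonds and bars for stage means. In the ribosomal, proteasome, cell cycle, erythroid and neutrophil panels T4 replicate 1 lies well below the other T4 arrays; in the superficial zone panel the 3 T4 arrays lie together, between 6.06 and 6.30.

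Of 10 listed mast cell markers, 3 were called lower (Kit, Fcer1a and Ms4a2) and 1 higher, the tryptase gene Tpsb2, against 0 higher and 3 lower (median -0.29) without T4 replicate 1. With all arrays the shares were 30% lower and 10% higher, near the 32.3% and 14% of all genes. The other proteases on that list were Tpsab1, Mcpt4, Mcpt1 and Cpa3. They changed by 0.87, 0.37, 0.13 and -0.33 and did not pass, beside 0.83 for Tpsb2. Ms4a2, a chain of the IgE receptor, changed by -1.78, and by -1.17 without T4 replicate 1. Related proteases outside the list were named for the size of their fall. Mcpt10 had 5.79, 6.65 and 6.32 in T3 replicates 1 to 3 and 2.18, 3.84 and 3.85 in T4 replicates 1 to 3, a change of -2.96 (SE 0.41, adjusted p = 0.000312) with a call in all 8 combinations. Mcpt9 had 7.48, 8.35 and 7.69 at T3 and 3.51, 6.42 and 6.503 at T4. Its change of -2.36 was -1.38 without T4 replicate 1 (adjusted p = 0.0146), and -0.92 with quantile normalization as well (adjusted p = 0.0984). Mcpt8, a basophil protease, had 10.77, 11.51 and 10.54 at T3 and 4.61, 10.38 and 9.44 at T4. Its change of -2.79 was -1.02 without T4 replicate 1 and missed the threshold (adjusted p = 0.173). Cyp51, an enzyme of cholesterol synthesis named after its values were seen, had 6.12, 6.66 and 6.42 at T3 and 4.69, 4.43 and 4.02 at T4, a change of -2.02 (SE 0.22, adjusted p = 9.98e-05) and a call in all 8 combinations. Cwc22, a splicing factor, had 5.95, 5.67 and 5.80 at T3 and 2.26, 3.95 and 4.14 at T4, and Churc1 had 6.02, 5.64 and 5.70 at T3 and 3.14, 4.69 and 3.55 at T4, both also called in all 8. Tmed2, a cargo receptor of the early secretory pathway, and Tardbp, an RNA-binding protein, changed by -2.83 and -2.74, with T4 replicate 1 at 4.23 and 2.85. Without that array they changed by -1.77 and -1.54.

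The rises at T4 were led by genes of low earlier signal. Taar7a, a trace amine receptor of the nose, had 3.02, 3.71 and 2.88 in T3 replicates 1 to 3 and 7.03, 6.63 and 6.16 in T4 replicates 1 to 3, the largest rise among the named genes outside the microRNA genes, at 3.40 (SE 0.26, adjusted p = 2.6e-05). Rps15al1, Rps10-ps22 and Rpl26-ps13, copies of ribosomal protein genes, changed by 3.32, 3.12 and 2.94; probes of such copies may share sequence with their parent genes, so they are uncertain. Krtap13, a hair keratin-associated protein, changed by 2.74. Of 1186 olfactory receptor genes, 435 were called higher and 31 lower, with a median of 0.53, and of 34 keratin-associated protein genes 17 and 1, with a median of 0.69. Of 16 trace amine receptor genes 7 were called higher, of 159 vomeronasal receptor genes 42, and of 15 sensory genes of eye and taste 6, with medians of 0.50, 0.30 and 0.58. The shares called higher were 36.7% for olfactory, 50% for keratin-associated, 43.8% for trace amine, 26.4% for vomeronasal and 40% for sensory genes. Beside them stand 14% of all genes, 18.1% of probe sets in bin 1 of lowest earlier signal and 27.7% to 28.6% in bins 2 to 4. The counts and medians of these classes were smaller without T4 replicate 1. Olfactory receptors then gave 288 higher and 26 lower (median 0.31), keratin-associated proteins 12 higher and 1 lower (median 0.48), trace amine receptors 4 higher and 0 lower (median 0.21), vomeronasal receptors 25 higher and 3 lower (median 0.036) and sensory genes 4 higher and 0 lower (median 0.29). Crx, a photoreceptor transcription factor, had 4.38, 4.52 and 4.14 at T3 and 6.97, 5.99 and 6.31 at T4, and Opn1mw, a cone opsin, had 3.46, 3.51 and 3.71 at T3 and 4.96, 4.67 and 4.67 at T4. These genes are known from the nose, hair and eye, and whether their signals lay above background could not be read from the table.

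2 of 16 skeletal muscle genes were called higher, a share of 12.5%. Counts of this paragraph on the deposited signals of all arrays stand beside 14% of all genes called higher and 32.3% lower. Acta1, skeletal muscle actin, had 5.62, 6.29 and 6.48 in T3 replicates 1 to 3 and 7.51, 8.38 and 7.16 in T4 replicates 1 to 3. All T4 arrays lay above T3, a change of 1.55 (SE 0.31, adjusted p = 0.00212), called in all 8 combinations. Acta1 was named by a rule that itself asked for no overlap and for a call with and without the level trend. Tnni2, fast troponin I, had 6.503, 6.48 and 5.68 at T3 and 7.65, 7.64 and 6.90 at T4, a change of 1.18 (SE 0.29, adjusted p = 0.00631). The other 14 of 16 muscle genes were not called, though 15 of the 16 changes were above 0 (median 0.47). The count rested on the setting: 14 were called higher with the level trend removed against T0 to T2 (median 1.59), 2 against T2 (median 0.30) and 2 without T4 replicate 1 (median 0.57). The list's median T0 to T2 signal was 7.86, while its medians in T2 replicates 1 to 3 were 5.03, 5.38 and 4.95. The T0 to T2 level thus lay far above the list's signal at T2. The part of this in the 14 calls was not tested. The list median was highest in T4 replicate 2, at 7.01 against 5.66 and 5.38 in replicates 1 and 3. Of 13 adipocyte genes, 3 were called higher and 3 lower (median -0.16, level trend removed 0.36 against the T0 to T2 level and 0.14 against the T2 level), with 2 in each direction when T4 replicate 1 was left out: Pck1 and Cidec changed by 1.37 and 1.25, and Pparg, the factor that drives fat cell formation, by -0.92. Of 11 nerve genes, 4 were called higher and 1 lower, against 2 higher and 0 lower (median 0.074) without T4 replicate 1. The growth factor gene Igf2 had 5.49, 5.56 and 5.12 at T3 and 7.03, 6.10 and 6.29 at T4, a change of 1.08 (SE 0.26, adjusted p = 0.00597).

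Signalling genes moved in both directions, beside 14% of all genes called higher and 32.3% lower. The share called lower was 32.1% for TGF-beta and BMP, 17.2% for Wnt and 33.3% for circadian clock genes, near or below that background. Tnf, the inflammatory cytokine, had 4.87, 5.13 and 4.84 at T3 and 7.32, 6.09 and 6.68 at T4, a change of 1.75 (SE 0.26, adjusted p = 0.000482), and Il17a had 2.80, 3.77 and 3.13 at T3 and 5.03, 4.17 and 4.40 at T4, a change of 1.30 (SE 0.27, adjusted p = 0.0024). Il1rn, the natural antagonist of interleukin 1, had 5.94, 5.55 and 5.61 at T3 and 3.41, 4.52 and 4.47 at T4, a change of -1.57 (SE 0.30, adjusted p = 0.00172). Among 22 inflammatory mediators these 3 and the higher Cxcl1 and Lif were the only calls, and the list median was 0.0091, against 4 higher and 2 lower (median -0.11) without T4 replicate 1. With all arrays 18.2% of the list was called higher. Its median T0 to T2 signal of 4.92 lay in bin 5, where 24.9% of probe sets were called higher. Without detection calls, whether the signals of Tnf and Il17a lay above background could not be told. Tgfb1, a growth factor that maintains cartilage matrix, had 8.51, 8.29 and 8.73 at T3 and 6.83, 7.19 and 6.98 at T4, a change of -1.51 (SE 0.19, adjusted p = 0.000187) that was 0.072 against the T2 level with the trend removed. Its effector Smad2 changed by -1.32, and 9 of 28 TGF-beta and BMP genes were called lower with 0 higher (median -0.41, level trend removed 0.12 against the T0 to T2 level and 0.064 against the T2 level), against 0 higher and 9 lower (median -0.56) without T4 replicate 1. Of 29 Wnt genes 2 were called higher and 5 lower: the receptor Fzd1 changed by 1.32, the co-receptors Lrp5 and Lrp6 by -1.36 and -1.32, and Ctnnb1 (beta-catenin) by -2.33, or -1.27 without T4 replicate 1. The Wnt median of -0.18 was 0.30 against the T0 to T2 level and 0.10 against the T2 level with the level trend removed, and 0.021 after quantile normalization; T4 replicate 1 left out, the list gave 2 higher and 5 lower (median -0.21). Of 15 circadian clock genes 5 were called lower and 0 higher (median -0.49, level trend removed 0.085 against the T0 to T2 level and 0.023 against the T2 level), and 4 (median -0.29) without T4 replicate 1, with Clock at -1.23 and its partner Bmal1 at -0.97.

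MicroRNAs pair with target messages through a seed, bases 2 to 8, and the let-7 family, which shares 1 seed, is known for rising as tissues mature. The array measures the gene's transcript or hairpin; the mature microRNA was not measured. The mature sequences of the genes described here are shown 5′ to 3′ from RefSeq (GRCr8), with the seed in capitals, because they show which genes share a seed.
rno-let-7b-5p: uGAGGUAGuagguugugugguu
rno-miR-98-5p: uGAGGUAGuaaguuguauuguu
rno-let-7i-5p: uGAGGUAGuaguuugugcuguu
rno-let-7c-5p: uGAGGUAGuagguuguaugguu
rno-let-7f-5p: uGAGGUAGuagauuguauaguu
rno-miR-483-3p: cACUCCUCcccucccgucuugu
rno-miR-483-5p: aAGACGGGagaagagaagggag
rno-miR-186-5p: cAAAGAAUucuccuuuugggcu
rno-miR-223-3p: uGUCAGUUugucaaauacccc
rno-miR-142-3p: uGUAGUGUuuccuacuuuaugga
rno-miR-27a-3p: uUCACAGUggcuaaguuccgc
rno-miR-27b-3p: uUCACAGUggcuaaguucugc

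Of 363 microRNA genes, 103 were called higher and 31 lower, against 14% and 32.3% of all genes, with a median of 0.20 that turned to -0.06 when arrays were scaled to equal SD. These shares, 28.4% higher and 8.5% lower, were near those of probe sets of like signal. The list's median T0 to T2 signal of 3.72 lay in bin 3, with 27.7% called higher and 6.7% lower. Leaving out T4 replicate 1 gave 75 higher and 25 lower (median 0.033), and with the level trend removed the median was 0.00048 against the T0 to T2 level and 0.0058 against the T2 level. Mirlet7b had 2.57, 4.60 and 2.73 in T3 replicates 1 to 3 and 7.14, 6.54 and 6.71 in T4 replicates 1 to 3, a change of 3.50 (SE 0.44, adjusted p = 0.000203). Mir98, which has the let-7 seed, had 3.78, 4.62 and 4.12 at T3 and 8.17, 5.77 and 6.59 at T4, a change of 2.67 (SE 0.46, adjusted p = 0.00106). Of 11 measured genes that give a mature microRNA with this seed, 9 were called higher and 0 lower, with a median of 0.89; the pairing of genes with mature sequences is that of RefSeq. Mirlet7i, Mirlet7c1 and Mirlet7f2 changed by 1.48, 1.33 and 1.06 (Mirlet7i by 0.97 without T4 replicate 1), while Mirlet7a-2 had 5.67, 5.71 and 4.99 at T3 and 5.25, 5.18 and 4.33 at T4 and did not pass. Family members differ by a few bases, so probes may be shared among them. The count was made after the values of Mirlet7b were seen.

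Mir483, which lies inside Igf2, had 6.98, 7.63 and 6.84 in T3 replicates 1 to 3 and 10.45, 9.69 and 10.05 in T4 replicates 1 to 3, a change of 2.91 (SE 0.32, adjusted p = 9.98e-05), beside 1.08 for Igf2. Mir3575 changed by 2.78. Among the falls, Mir186 had 4.78, 4.06 and 4.89 at T3 and 3.12, 3.63 and 1.96 at T4. Mir223, a microRNA of myeloid cells, had 5.77, 4.997 and 7.51 at T3 and 4.49, 4.55 and 4.32 at T4, and Mir142, found across blood cells, had 5.68, 4.20 and 4.996 at T3 and 3.52, 3.60 and 3.73 at T4. Their changes were -1.67, -1.64 and -1.34, and in each all T4 arrays lay below T3. Mir27a and Mir27b, which share a seed, changed by -1.18 and -1.22; without T4 replicate 1 Mir27a missed the threshold at -1.13 (adjusted p = 0.0567). The Spearman correlation of the change with the GC share of 330 hairpins was 0.18, and that of the signal itself 0.59 to 0.66 in the T3 and T4 arrays. The part of base composition in these changes was not tested.

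**Figure D5:**
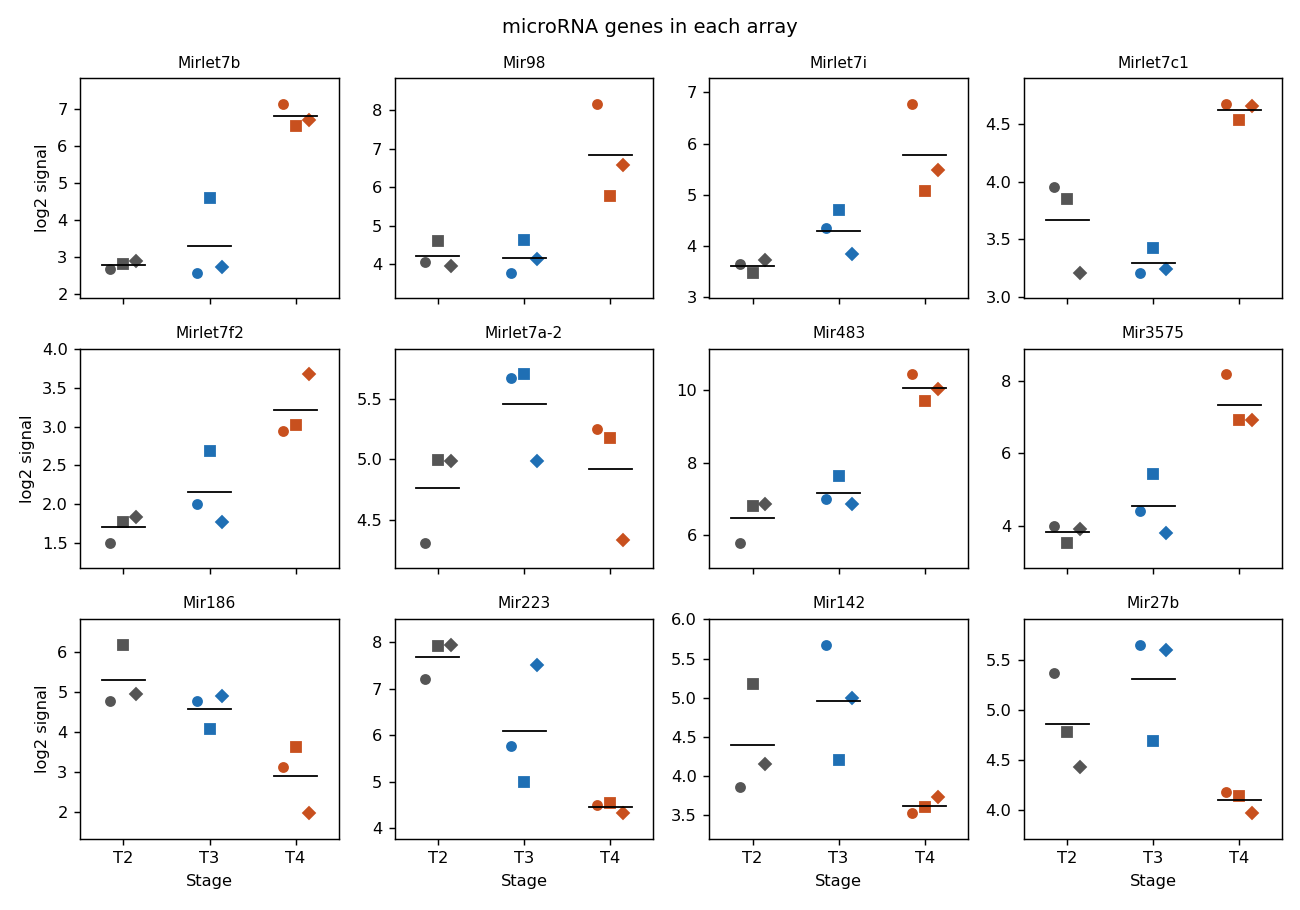
log2 signals of 12 microRNA genes in the T2, T3 and T4 arrays, with replicates 1, 2 and 3 as circles, squares and diamonds and bars for stage means. Mirlet7b and Mir483 have all T4 arrays above all T3 arrays, and Mir186, Mir223, Mir142 and Mir27b all below.

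Of 39 long non-coding RNA genes with a symbol, 12 were called higher and 1 lower, with a median of 0.40, against 7 higher and 2 lower (median 0.18) without T4 replicate 1. With all arrays the shares were 30.8% higher and 2.6% lower. The list's median T0 to T2 signal of 4.43 lay in bin 4, with 28.6% of probe sets called higher and 7.4% lower. AA926063, Prr20e and Atp5mgl1 changed by 2.37, 2.05 and 1.45. The 1 called lower with all arrays was Snhg4, a host gene of a small nucleolar RNA, with 7.16, 6.47 and 6.60 at T3 and 2.42, 5.50 and 5.37 at T4, a change of -2.31 (SE 0.59, adjusted p = 0.00757) that was -1.30 without T4 replicate 1. The 18174 probe sets without a single symbol gave 3451 higher and 3463 lower calls and a median change of -0.01.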

How the data were processed

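The authors deposited a table of log2 signals made with RMA, per the submitters' processing notes; for software version, library file and genome build: not given in the sources used here. RMA summarises the probes of a probe set after evening out probe signals between arrays, yet the deposited columns differ in spread. Main values use these signals unchanged. Per the labels, samples are biological replicates, 3 per stage. Probe sets were named from the platform annotation given with the table, updated through RefSeq (18394 of 18511 matched); the probe set with the highest mean stood for a gene. limma 3.58.1 in R 4.3.3 (lmFit, eBayes) fitted a mean per stage to all 15 arrays, with Benjamini-Hochberg adjustment over all probe sets and a threshold of 0.05. The test was checked on simulated data with independent noise smaller than that of these arrays. In that check no T4 array was outlying or narrower in range, so it does not cover those features.

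Members, lists (44) and tests were chosen with earlier results of these data known. Genes named were the 8 largest called rises and falls without overlap between groups, the same after removing the trend of change with level, up to 3 called members of each list by p, the 3 largest called long non-coding and microRNA genes each way, and 6 cartilage genes always named. Olfactory receptor genes were left out of that choice through their older names. Others were chosen after their values were seen. Where a rule asked for no overlap or for a call, these were set by the choice and lend the gene no support.

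Alternatives were quantile normalization, removal of the level trend (lowess, span 0.3, against the T0 to T2 or the T2 mean), scaling or centring of arrays, array weights, the 6 arrays alone, a filter on dim probe sets, a replicate block and leaving out each array. Those using the T2 level, and those joining quantile normalization or the T2 level with leaving out T4 replicate 1, were added after seeing the data.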

Additional observations from a re-analysis of the deposited data

How the results depend on the processing

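The main count was 15493 probe sets, of which 10277 had a change of at least 1. The 6 arrays alone gave 2532 (2527 of them in the main count), and leaving out dim probe sets gave 10241 of 18342 (9722 in the main count, 18.2% higher). Removing the level trend gave 10008 (T0 to T2 level, 56.6% higher) and 9623 (T2 level), and without T4 replicate 1 as well 5675 and 5385; quantile normalization without that array gave 9711. Leaving out 1 array gave 11534 (without T4 replicate 1) to 17507 calls (without T4 replicate 2). The range difference was -0.51 by interquartile range and -0.31 to -0.19 on the SD with 1 array left out. Deviations of same-numbered T3 and T4 arrays correlated at -0.04, -0.19 and 0.12, and those of differently numbered arrays between -0.19 and 0.21. With 3 arrays per stage these values cannot decide whether the numbers pair the arrays. A replicate block gave 505 calls on the 6 arrays and 14815 on all stages. Of 101 named genes, 43 lost the call with the 6 arrays alone. The change of a gene is the same in both fits by construction, so no direction could turn.

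Groups whose array medians did not overlap between T3 and T4, and genes called in either setting, are given by setting where their direction turned, as median or single changes (log2); the cause was not tested. Arrays scaled to equal SD: microRNA genes -0.061, Rn5-8s 1.26 and Rpph1 1.25. Level trend removed, T0 to T2 level: cartilage matrix 0.41, chondrocyte transcription factors 0.35, hypertrophy and mineralization 0.12, superficial zone and lubricin 0.20, collagen biosynthesis and crosslinking 0.39, matrix proteases and inhibitors 0.041, fibrillar and type VI collagens 0.39, cytosolic ribosomal proteins 0.32, secretory pathway and ER folding 0.020, autophagy 0.11, senescence and arrest 0.080, TGF-beta and BMP signalling 0.12, osteoblast and osteocyte 0.17, endothelial 0.18, tendon and ligament 0.27, liver secreted proteins -0.076, all genes 0.035, Col2a1 0.59, Col10a1 0.52, Hapln1 0.045, Hbb-b1 0.79, Actb 1.11, Rn5-8s 2.40, Rpph1 2.37 and Rps29 1.52. Level trend removed, T2 level: cartilage matrix 0.087, chondrocyte transcription factors 0.28, collagen biosynthesis and crosslinking 0.15, fibrillar and type VI collagens 0.11, cytosolic ribosomal proteins 0.28, autophagy 0.068, senescence and arrest 0.016, interferon response 0.49, complement 0.12, TGF-beta and BMP signalling 0.064, neutrophil and myeloid 0.42, B cell 0.22, macrophage 0.0054, osteoblast and osteocyte 0.13, liver secreted proteins -0.079, all genes 0.032, Col2a1 0.44, Col10a1 0.36, Tgfb1 0.072, S100a9 1.48, Camp 1.07, Hbb-b1 0.82, Actb 1.08, Rn5-8s 2.30, Rpph1 2.27, Rps29 1.42 and Fcnb 0.085. Without T4 replicate 1, T0 to T2 level: cartilage matrix 0.025, chondrocyte transcription factors 0.25, collagen biosynthesis and crosslinking 0.10, fibrillar and type VI collagens 0.19, cytosolic ribosomal proteins 0.38, translation factors 0.18, secretory pathway and ER folding 0.029, hypoxia and glycolysis 0.042, autophagy 0.019, complement 0.031, TGF-beta and BMP signalling 0.050, neutrophil and myeloid 0.26, osteoblast and osteocyte 0.073, endothelial 0.093, tendon and ligament 0.043, all genes 0.010, Camp 1.26, Actb 0.82, Rn5-8s 1.13, Rpph1 1.06 and Rps29 1.10. Without T4 replicate 1, T2 level: chondrocyte transcription factors 0.19, cytosolic ribosomal proteins 0.34, translation factors 0.15, secretory pathway and ER folding 0.0052, antioxidant enzymes 0.0098, autophagy 0.038, interferon response 0.20, complement 0.064, erythroid 0.066, neutrophil and myeloid 0.39, B cell 0.041, osteoblast and osteocyte 0.064, liver secreted proteins -0.014, all genes 0.011, Camp 1.21, Actb 0.72, Rn5-8s 1.01, Rpph1 0.93 and Rps29 0.99. Without T4 replicate 1, quantile: cytosolic ribosomal proteins 0.027 and neutrophil and myeloid 0.033.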

Other observations

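Genes of other pathways and tissues were counted in the same way, beside 14% of all genes called higher and 32.3% lower. Glycolysis and hypoxia genes gave 0 higher and 9 lower of 13 (median -1.20), autophagy genes 0 higher and 10 lower of 18 (median -0.77) and heat shock proteins 1 higher and 10 lower of 17 (median -0.88). Interferon response genes gave 1 higher and 5 lower of 20 (median -0.57), complement genes 1 higher and 7 lower of 16 (median -0.73) and immediate early genes 1 higher and 7 lower of 21 (median -0.47). Hif1a, the oxygen-sensing transcription factor, had 7.88, 7.55 and 8.47 at T3 and 5.60, 6.75 and 6.33 at T4, and Cd55, a brake on complement, had 8.30, 7.999 and 8.98 at T3 and 5.35, 7.03 and 6.999 at T4; in both all T4 arrays lay below T3. Among genes of neighbouring tissues, tendon and ligament genes gave 0 higher and 4 lower of 9 (median -0.94) and smooth muscle and pericyte genes 0 higher and 3 lower of 10 (median -0.37). Genes of tissues far from the joint gave 4 higher and 1 lower of 16 (median 0.31) for sperm and testis, 4 higher and 1 lower of 15 (median 0.28) for liver secreted proteins and 3 higher and 0 lower of 12 (median 0.48) for keratins. Their shares called higher were 25%, 26.7% and 25%. By median T0 to T2 signal, sperm and liver genes lay in bin 3 and keratins in bin 5. In these bins 27.7% and 24.9% of probe sets were called higher. Pseudogenes gave 30 higher and 36 lower of 162 (median -0.038), and immunoglobulin and T cell receptor V segments 9 higher and 10 lower of 48 (median -0.31). With the level trend removed, the medians that crossed 0 were 0.11 against the T0 to T2 level and 0.068 against the T2 level for autophagy, 0.34 against the T0 to T2 level and 0.19 against the T2 level for immediate early and 0.32 against the T0 to T2 level and 0.042 against the T2 level for smooth muscle and pericyte genes. Those of interferon response, complement and liver genes were 0.49, 0.12 and -0.079 against the T2 level, and that of tendon and ligament genes was 0.27 against the T0 to T2 level. Without T4 replicate 1, glycolysis and hypoxia genes gave 0 higher and 5 lower (median -0.66), autophagy genes 0 higher and 7 lower (median -0.66), heat shock proteins 0 higher and 11 lower (median -0.84) and interferon response genes 0 higher and 2 lower (median -0.50). Complement genes gave 1 higher and 7 lower (median -0.67), immediate early genes 0 higher and 6 lower (median -0.41), tendon and ligament genes 0 higher and 4 lower (median -0.88) and smooth muscle and pericyte genes 0 higher and 1 lower (median -0.39) in that setting. Keratins gave 0 higher and 0 lower (median 0.17), sperm and testis genes 1 higher and 1 lower (median 0.12), liver genes 4 higher and 1 lower (median 0.13), pseudogenes 21 higher and 25 lower (median -0.11) and V segments 9 higher and 3 lower (median -0.26) without it.

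Genes were also set against sequence features, across genes that are not independent. The change had a Spearman correlation of -0.29 with the GC share of 14469 promoters (RefSeq, GRCr8), whose GC share correlated at 0.47 with the T0 to T2 signal. With the level trend removed it was -0.019. The span of 18059 genes correlated with the change at -0.27 and with the T0 to T2 signal at 0.31. The part of these features in the changes was not tested.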
